A study of Saccharomyces cerevisiae with 3 samples.

Results

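HSP30, YRO2 and MRH1, which encode related plasma membrane proteins, TPO2, which encodes a polyamine exporter, and HAA1, which encodes a regulator of the response to weak acids, were followed in yeast treated with the fungicide fluazinam. These 5 genes are among the 5203 named genes on the array. They were chosen by name, through the gene symbols of the array's annotation, at a time when their log ratios on these same arrays were known, so their values are given as a description, with no p-value. Each gene had 1 probe, and each probe had a value on all 3 arrays.

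The study exposed Saccharomyces cerevisiae S288C, the reference laboratory strain, to fluazinam, a weakly acidic fungicide known as an uncoupler of oxidative phosphorylation. Treated cultures of 100 ml in rich glucose medium at 25 C, in exponential growth, received fluazinam at 1.5 uM for 2 h, and the untreated cultures of the same strain grew for 2 h in the same medium with no addition; whether they received the solvent of the stock was not given in the sources used here. Polyadenylated RNA of both was hybridised on 2-colour arrays. Each of the 3 arrays carried Cy5 cDNA from treated cells and Cy3 cDNA from untreated ones, and the submitters call them independent biological samples. With no dye swap, a dye effect on a gene and an effect of the treatment cannot be told apart, and whether each array had an untreated culture of its own was not given in the sources used here.

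Values were log ratios, taken as log2 of treated over untreated. Neither the base nor the direction was given in the sources used here, and the direction is only likely. Its basis is that treated cells are listed as channel 1, in Cy5; the opposite reading would turn every sign below, and with it every fold, place and share of features above or below a gene. Of 6272 probes, between 4463 and 5245 had a value on an array, and 3802 genes or unnamed features had one on all 3. The arrays differed in spread, with SDs over those features of 1.04, 0.82 and 0.91 for replicates 1, 2 and 3, and replicate 2 correlated least with the others (Pearson r across features of 0.507 with replicate 1 and 0.434 with replicate 3, against 0.629 between replicates 1 and 3). The features are not independent replicates of each other. In a limma test across all of them, with Benjamini-Hochberg adjustment, 299 passed an adjusted p of 0.05, which is 7.86% of those tested; 3.39% were higher in treated cells and 4.47% lower.

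Weak acids enter yeast in the undissociated form, release protons in the cytosol and leave their anion there. Cells answer by pumping protons out through the plasma membrane ATPase Pma1, by exporting anions and by changing their membrane and wall. Haa1, a transcription factor with a copper-fist domain that is not itself controlled by copper, moves into the nucleus in acid-stressed cells and activates a set of genes that includes YRO2 and TPO2. Hsp30 is induced by heat shock, ethanol and weak acids and limits the activity of Pma1 under stress.

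Of the 5 genes, YRO2 was the highest by its mean, followed by HSP30, TPO2, HAA1 and MRH1. All 5 means were above 0, and 4 genes were above 0 on every array, MRH1 being the exception; 14 of the 15 values were above 0. Of all features tested, the mean was positive for 49.8%, and 25.2% were positive on every array. YRO2, HSP30 and TPO2 were among the features past the threshold, all 3 in the higher direction, where the share of all features was 3.39%. Since the genes were chosen on this contrast, nothing is read from that count or from the counts of signs. Without replicate 1, or without replicate 3, none of the 3 was past the threshold, and of all features 11 and 0 were.

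**Figure D1:**
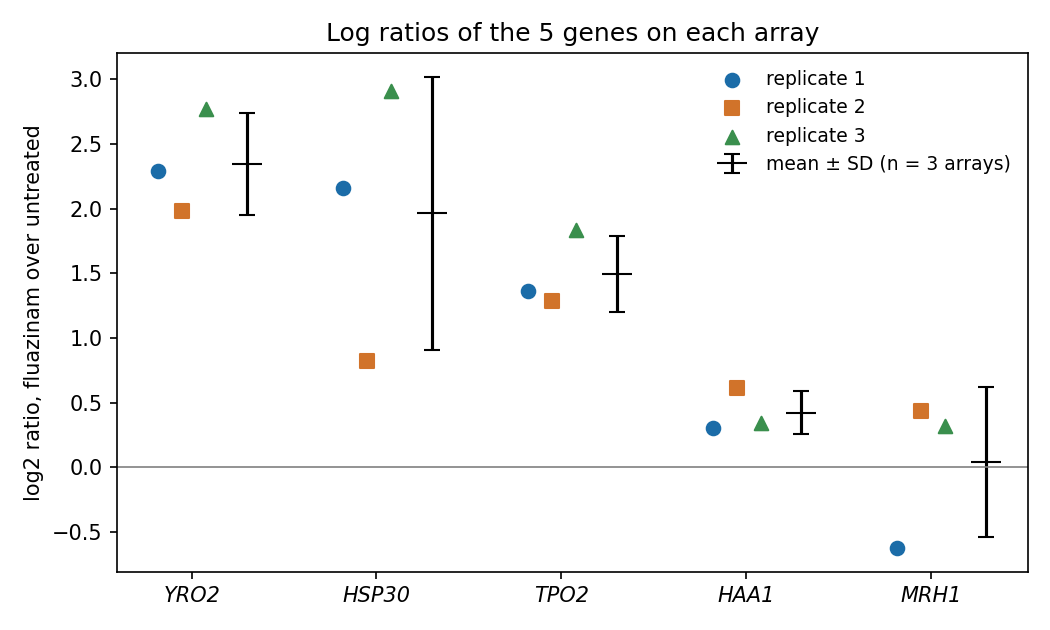
Log2 ratio of treated over untreated (vertical axis) for the 5 genes (horizontal axis), with a symbol for each array and the mean with its SD over 3 arrays as the black bar. YRO2 and TPO2 stay at or above 1.29 on every array, HSP30 runs from 0.82 to 2.91, and MRH1 has values on both sides of 0.

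Among the membrane proteins, YRO2 (YBR054W, chromosome II), whose product is a rhodopsin-like protein linked to growth under acetic acid, had log2 ratios of 2.29, 1.98 and 2.77 on replicates 1, 2 and 3. All 3 arrays put it high: 98.2%, 97.8% and 99.2% of the features tested had a lower ratio. The mean of 2.34 ± 0.40 (SD, n = 3) is 5.08-fold on the log2 scale, and would be 10.4-fold if the values were natural logs. By its mean YRO2 stood in place 18 from the top of the 3802 features. Its SD was below the median SD of all features, 0.46. With the median of the probe's sub-grid on the slide subtracted, YRO2 was at 2.27, 1.78 and 3.12 (mean 2.39 ± 0.68), a larger spread.

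HSP30 (YCR021C, chromosome III) had log2 ratios of 2.15, 0.82 and 2.91. It was above 0 on each array but uneven, with replicate 2 far below the other two. By rank within the array, 97.8%, 89.2% and 99.3% of features were lower, so replicate 2 was the lowest by rank as well as by ratio. The mean was 1.96 ± 1.06 (SD, n = 3), or 3.90-fold, and 92.8% of features had a smaller SD. On the slide, the sub-grid that holds the HSP30 probe had medians of 0.42, 0.20 and 0.33 on the 3 arrays, and with these subtracted HSP30 was at 1.64 ± 0.98; their part in the result was not tested.

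MRH1 (YDR033W, chromosome IV), whose product resembles Hsp30 and Yro2 and lies mainly in the plasma membrane, had log2 ratios of -0.63, 0.43 and 0.32. It was below 0 on replicate 1 and above 0 on the other arrays, and its mean of 0.04 ± 0.58 (SD, n = 3) lay within its spread around 0. Ratios lower than that of MRH1 were found for 24.2%, 77.2% and 67.0% of features. Its mean was below 0 when replicate 2 was left out (-0.15) and when replicate 3 was (-0.10), and 0.38 without replicate 1.

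TPO2 (YGR138C, chromosome VII) encodes an antiporter of the DHA1 family, which moves polyamines such as spermine and is linked to resistance to acetic acid. It had log2 ratios of 1.36, 1.29 and 1.83. They were close to each other, with 93.5%, 95.2% and 97.5% of features lower, and the SD was smaller than that of all but 26.0% of features. The mean was 1.49 ± 0.29 (SD, n = 3), a ratio of 2.82-fold. The sub-grid of the TPO2 probe, inferred like all sub-grids from the probe numbers, had medians of 0.26, 0.11 and 0.55. With these subtracted TPO2 was at 1.10, 1.18 and 1.28 (mean 1.19 ± 0.09), lower and with a smaller spread. How far a probe also binds transcripts of similar sequence was not tested.

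HAA1 (YPR008W, chromosome XVI), the regulator, had log2 ratios of 0.31, 0.61 and 0.34. All were small and of 1 sign, and its mean of 0.42 ± 0.17 (SD, n = 3), a ratio of 1.34-fold, came with an SD below that of all but 9.28% of features. With sub-grid medians subtracted HAA1 was at 0.04, 0.60 and 0.62 (mean 0.42 ± 0.33), so the small spread was not kept. In place by mean it was in the upper part of the table without being at its edge, with 75.4% of features lower. These values concern its transcript; the entry of the protein into the nucleus was not measured.

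**Figure D2:**
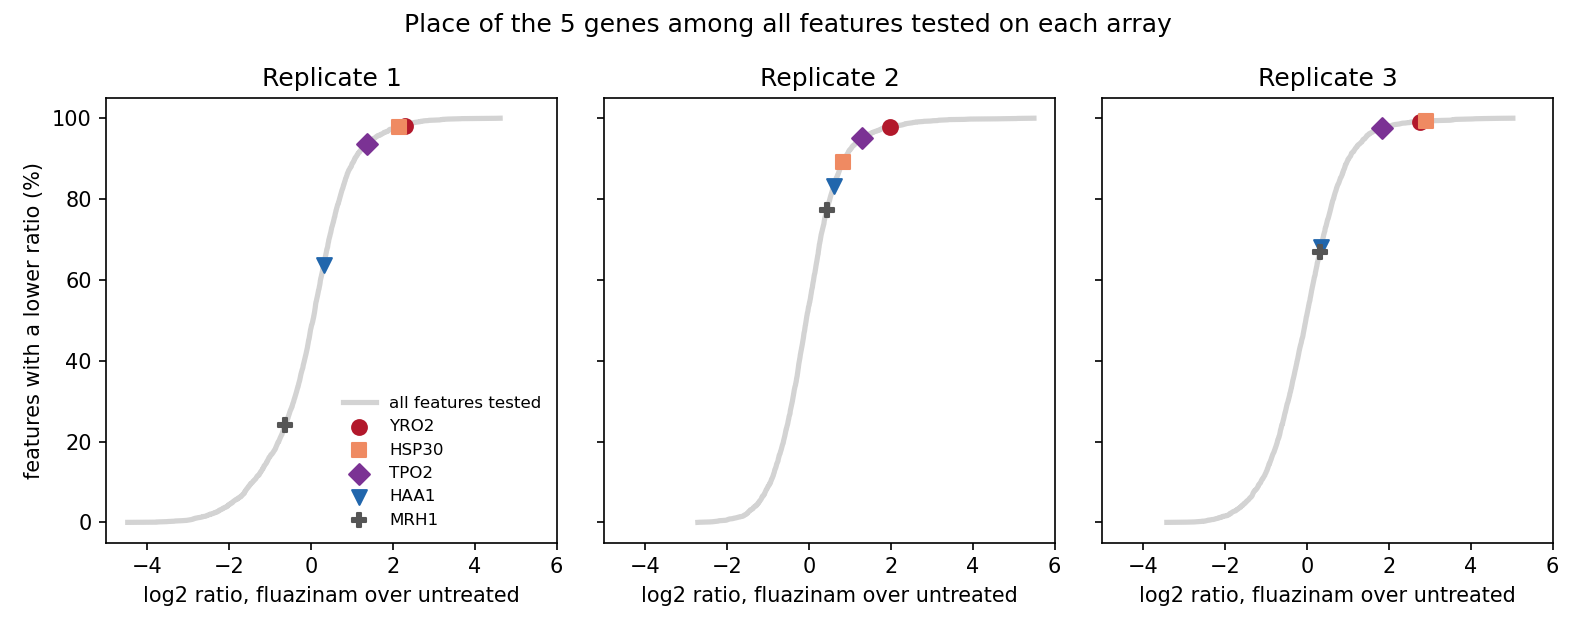
Share of the 3802 features with a lower ratio (vertical axis, percent) against the log2 ratio (horizontal axis), a panel for each array, with the grey line for all features and coloured symbols for the 5 genes. YRO2 is at 97.8% or higher on every array, HSP30 runs from 89.2% on replicate 2 to 99.3% on replicate 3, and MRH1 moves from 24.2% on replicate 1 to 77.2% on replicate 2.

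Differences between the genes were taken within each array, which removes what an array adds to all its spots. YRO2 exceeded MRH1 by 2.91, 1.55 and 2.45 (mean difference of log2 ratios 2.30 ± 0.69, SD, n = 3). HSP30 exceeded MRH1 by 2.78, 0.39 and 2.59 (1.92 ± 1.33). In this family MRH1 therefore lay below both relatives on every array, though on replicate 2 it was close to HSP30. With sub-grid medians subtracted, HSP30 exceeded MRH1 by 0.02 on replicate 2. HSP30 minus MRH1 was 1.49 ± 1.56 without replicate 1 and 1.585 ± 1.69 without replicate 3 (SD, n = 2 each), both within the spread.

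YRO2 and HSP30 did not differ beyond their spread, with YRO2 minus HSP30 at 0.13, 1.16 and -0.14 (0.38 ± 0.69). With sub-grid medians subtracted the difference was 0.53, 1.16 and 0.54 (0.74 ± 0.36), above 0 on every array and larger than its spread. HSP30 and TPO2, next in the order, differed by 0.79, -0.46 and 1.08 (0.47 ± 0.82), within the spread. Without replicate 2, the array with the negative value, the difference was 0.94 ± 0.20 (SD, n = 2). HAA1 and MRH1, last in the order, differed by 0.93, 0.18 and 0.02 (0.38 ± 0.49), within the spread. Without replicate 3 the difference was 0.56 ± 0.53 (SD, n = 2).

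The difference between TPO2 and HAA1, the remaining neighbours in the order, exceeded its spread, with TPO2 higher by 1.06, 0.67 and 1.49 (1.07 ± 0.41). TPO2 exceeded MRH1 by 1.99, 0.85 and 1.51 (1.45 ± 0.57). YRO2 minus TPO2 was 0.92, 0.69 and 0.94 (0.85 ± 0.14), a small spread that was not kept with sub-grid medians subtracted, where it was 1.17, 0.60 and 1.84 (1.20 ± 0.62). YRO2 exceeded HAA1 by 1.98, 1.37 and 2.42.

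**Figure D3:**
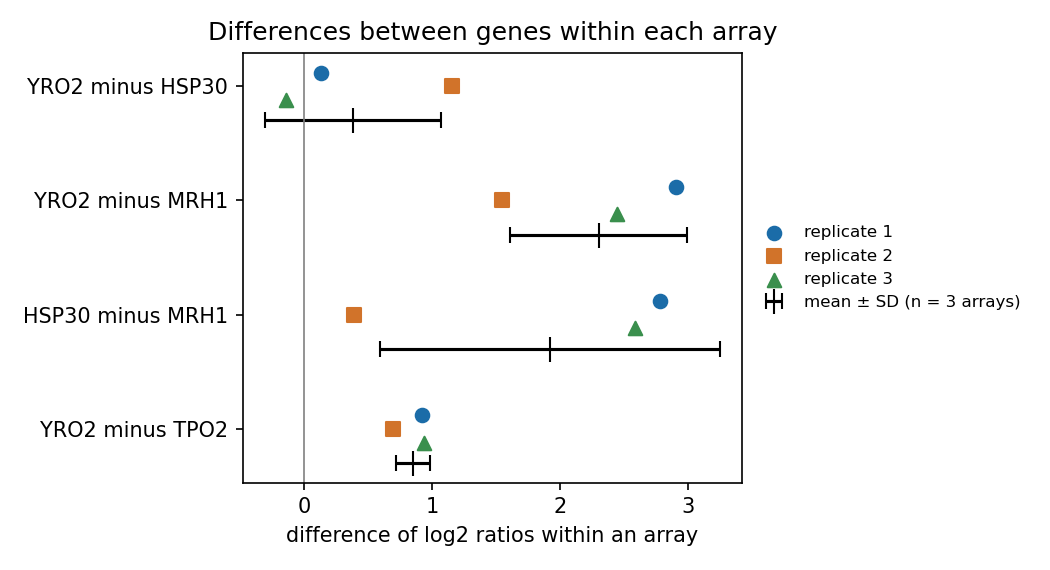
Difference of log2 ratios within an array (horizontal axis) for 4 pairs of genes (vertical axis), with a symbol for each array and the mean with its SD over 3 arrays as the black bar. YRO2 minus MRH1 and HSP30 minus MRH1 are above 0 on every array, YRO2 minus HSP30 lies on both sides of 0, and YRO2 minus TPO2 keeps between 0.69 and 0.94.

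Genes around these 5 were grouped into 6 lists from textbook knowledge, chosen with earlier results of these data known, and tested in the same fit over all features. Of their 51 genes, 47 had a named probe and 36 a value on all 3 arrays. In all, 6 rose, 0 fell and 30 did not pass, beside the 3.39% of all features that rose and the 4.47% that fell. At an unadjusted p under 0.05 in limma there were 10 rises and 4 falls among the 36. Of the 3802 features, 1129 had such a p in either direction. Without replicate 1, 0 listed genes passed in limma (13 at an unadjusted p under 0.05). Without replicate 3 it was 0 (10 at an unadjusted p), and without replicate 2 it was 7. Of all 3802 features, 11 passed without replicate 1, 0 without replicate 3 and 657 without replicate 2. At an unadjusted p under 0.05 in limma these were 720, 878 and 1085 features. A fall was called for 1 listed gene under 4 alternatives (median centring, a common median absolute deviation, quantile normalization and without replicate 2) and for 2 with sub-grid medians subtracted; these genes are named below.

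Other targets of Haa1 had the most rises. Of 11 listed, 8 were measured on all arrays, 4 rose and 4 did not pass, beside the 3.39% of all features that rose. Since the list was chosen with earlier results known, nothing is read from that count. None of the 4 passed without replicate 1 or without replicate 3, where 11 and 0 of all features passed. The median of the mean log2 ratios of the 8 was 1.06, against -0.0049 for all features tested. YGP1, which encodes a secreted glycoprotein of the cell wall, had log2 ratios of 2.09, 1.55 and 2.20 and a mean of 1.95 ± 0.35 (limma, adjusted p = 0.0249). TDA6 rose by 1.45 ± 0.34 (adjusted p = 0.0310), YLR297W by 1.51 ± 0.76 (0.0435) and YIR035C, also called NRE1, by 1.67 ± 1.01 (0.0497). The last of these lies at the threshold and had 2.61, 0.61 and 1.79 on the 3 arrays.

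The Haa1 targets that did not pass were lower than these. INM1, an inositol monophosphatase gene, was at 0.68 ± 0.39 (adjusted p = 0.153), the transcription factor gene COM2 at 0.36 ± 0.32 (0.411) and SAP30, for a subunit of a histone deacetylase complex, at 0.26 ± 0.15 (0.529). HRK1, which encodes a protein kinase that activates Pma1, had -0.22, -0.83 and 1.63, values of both signs, with a mean of 0.20 ± 1.28 (0.807). The mean was positive for all 8 measured targets and every array was positive for 7, HRK1 being the exception. Of all features tested, 49.8% had a positive mean and 25.2% were positive on every array. As the list was chosen with earlier results known, nothing is read from these counts or from the list's median.

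A further 3 targets lacked a value on 1 array and were outside that test. GRE1, a hydrophilin gene, had the highest values of the list, 4.04 on replicate 1 and 3.03 on replicate 3. SPI1, for a cell wall protein with a lipid anchor, had 2.39 on replicate 1 and 1.23 on replicate 2, and PHM8, a phosphatase gene, had 1.19 and 1.69 on the same arrays. In a fit that took features with values on at least 2 arrays, GRE1 passed (adjusted p = 0.0363) and SPI1 (0.0664) and PHM8 (0.0734) did not, and of the genes that rose YLR297W (0.0564) and YIR035C (0.0664) no longer passed.

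Of the other weak-acid genes, 4 of 7 were measured on all arrays, 1 rose and 3 did not pass, with a median of 0.32. It was 0.099 without replicate 2, 0.55 without replicate 1 and 0.092 with sub-grid medians subtracted. ATO2, a gene of an ammonium and acetate transporter family, rose with 2.35, 1.11 and 1.17 (mean 1.55 ± 0.70, adjusted p = 0.0379). WAR1, which encodes the regulator of the response to sorbate and benzoate, was at 0.57 ± 0.31 (0.209) and ATO3 at 0.07 ± 0.58 (0.906). FPS1, for the glycerol channel through which undissociated acetic acid can enter, was below 0 on every array with a mean of -0.40 ± 0.13 (0.331). PDR12, the gene of the acid anion exporter, and RIM101 had no named probe, and ADY2 had no value on any array; they were not analysed here.

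**Figure D4:**
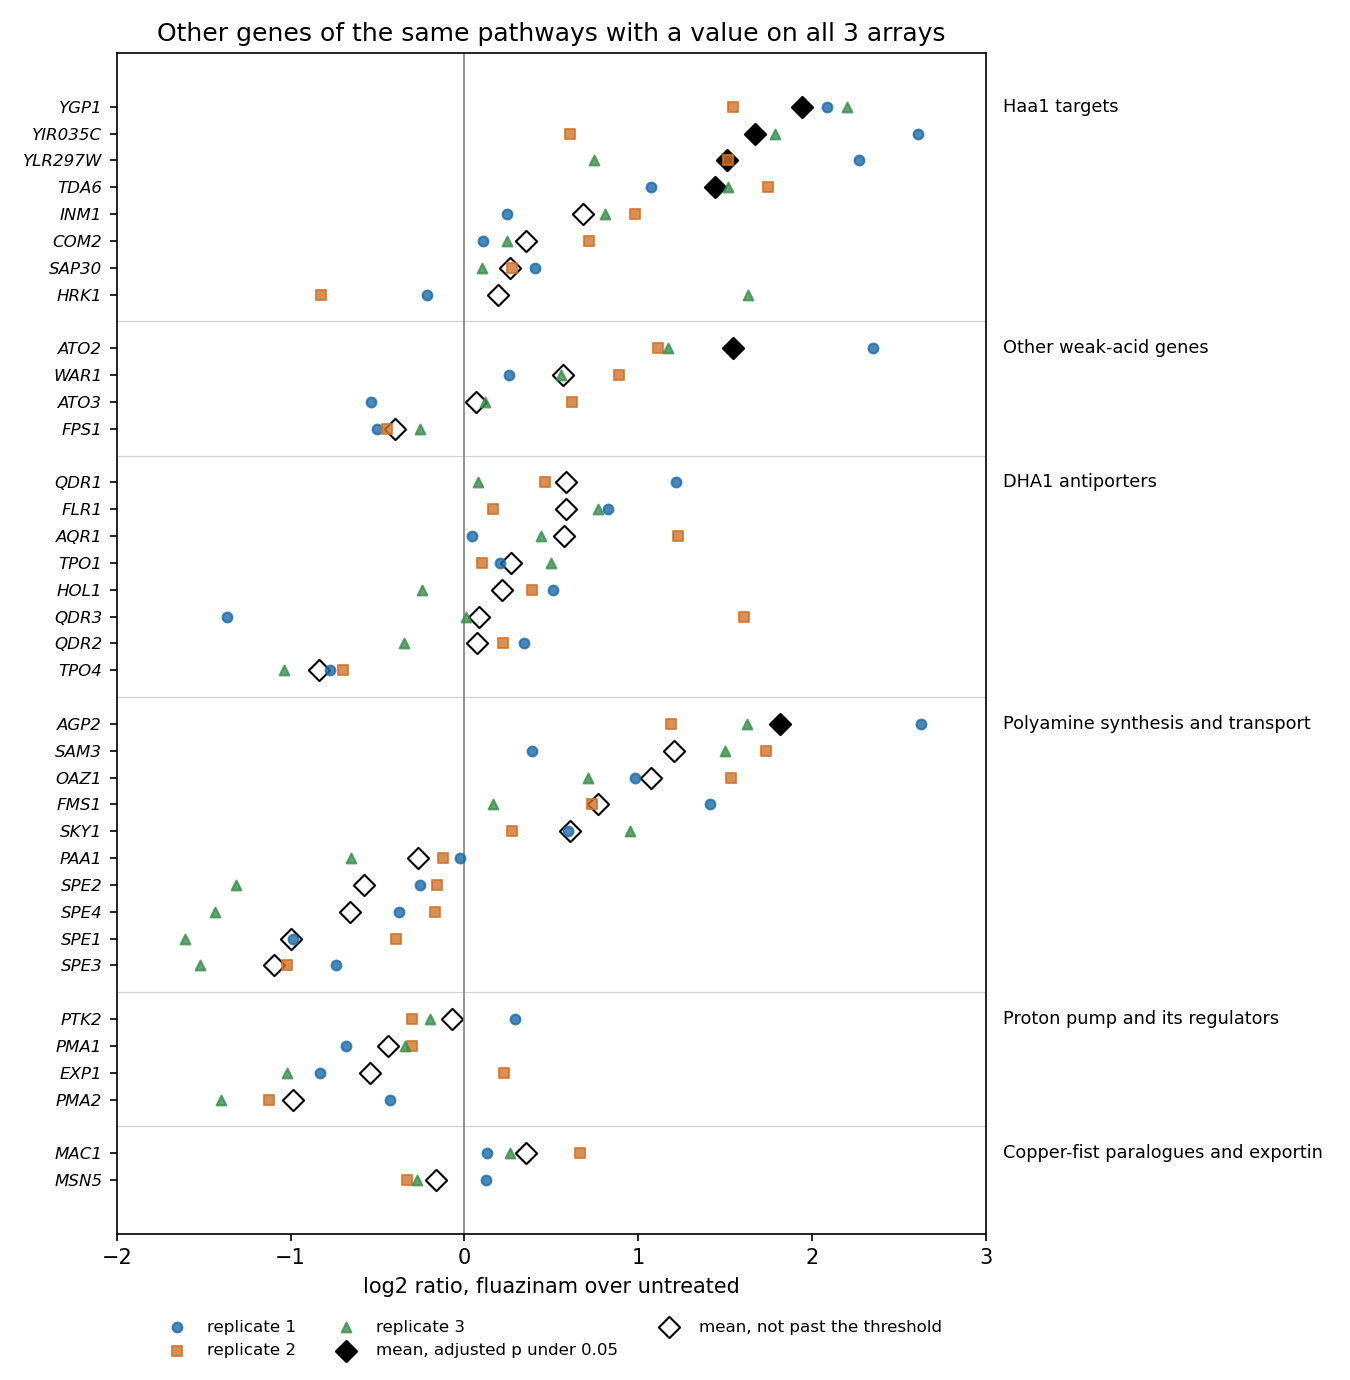
Log2 ratio of treated over untreated (horizontal axis) for the 36 listed genes with a value on all 3 arrays (vertical axis, grouped by list), with a small symbol for each array and a diamond for the mean, filled where the limma adjusted p was under 0.05. The 6 filled diamonds are YGP1, YIR035C, YLR297W, TDA6, ATO2 and AGP2, all right of 0. Those of the 4 genes listed under the proton pump and its regulators are open and left of 0.

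None of the 8 other listed antiporters of the DHA1 family with all values passed, at a median of 0.24; 1 of them, TPO4, had an unadjusted p under 0.05. TPO1, which also exports polyamines, had 0.20, 0.10 and 0.50 (mean 0.27 ± 0.20, adjusted p = 0.526). TPO4 was below 0 on every array, with -0.77, -0.70 and -1.04 (-0.84 ± 0.18, adjusted p = 0.0866). QDR1 had the highest mean of the 8 (0.59 ± 0.58, adjusted p = 0.246). Set beside them, TPO2 at 1.49 was above the mean of each of the 8.

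Genes of polyamine synthesis and uptake lay on both sides of 0, with a median of 0.17 over 10 measured of 13 (0.032 without replicate 1 and 0.052 with sub-grid medians subtracted); 1 rose and 9 did not pass. AGP2, a plasma membrane protein gene required for high-affinity polyamine and carnitine uptake, rose with 2.63, 1.19 and 1.63 (mean 1.82 ± 0.74, adjusted p = 0.0302). Of the 10 measured, 5 were above 0 on every array and 5 below, beside 960 and 1030 of the 3802 features. The 4 genes of the synthetic enzymes were each below 0 on every array, and none passed. They were SPE1, ornithine decarboxylase (-0.997 ± 0.61, adjusted p = 0.0907), SPE2 (-0.58 ± 0.64, 0.271), SPE3, spermidine synthase (-1.09 ± 0.40, 0.0598), and SPE4, spermine synthase (-0.66 ± 0.68, 0.228). SPE1 passed as lower without replicate 2 (limma adjusted p = 0.0236), and SPE3 with median centring (0.0495), a common median absolute deviation (0.0436), quantile normalization (0.0393) and sub-grid medians (0.0388). OAZ1, whose product is the antizyme that marks ornithine decarboxylase for degradation, had 0.98, 1.53 and 0.71 (1.08 ± 0.42, adjusted p = 0.0626), and SAM3, a permease gene, was at 1.21 ± 0.72 (0.0707).

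The proton pump that Hsp30 restrains was measured together with an isoform and genes listed as its regulators. Of 7 genes, 4 were measured on all arrays, none passed, and the median was -0.49; PMA2 alone had an unadjusted p under 0.05. PMA1 had -0.68, -0.30 and -0.34 (mean -0.44 ± 0.21, adjusted p = 0.296) and its minor isoform PMA2 -0.43, -1.13 and -1.40 (-0.99 ± 0.50, adjusted p = 0.0820, and 0.0383 with sub-grid medians subtracted, where it passed as lower). Both were below 0 on every array, as were 1030 of the 3802 features. The kinase gene PTK2 was at -0.07 ± 0.32 (0.885).

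Around HAA1 itself, the copper-fist paralogue MAC1 was at 0.35 ± 0.28 (adjusted p = 0.407) and MSN5, which encodes the exportin that returns Haa1 to the cytosol, at -0.16 ± 0.25 (0.721). Neither passed, nor had either an unadjusted p under 0.05. CUP2, the closest relative of HAA1 and the activator of copper-detoxification genes, had a value of 0.39 on replicate 2 and 0.24 on replicate 3 only.

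Likeness of pattern was measured as the root mean square difference of the log2 ratios over the 3 arrays, among named genes with all values, as a description only. YRO2 was nearest to UBC5, a ubiquitin-conjugating enzyme gene (root mean square difference 0.36), MSC1 (0.37) and TMA10 (0.41). HSP30 was nearest to YJL163C (0.25), the siderophore transporter gene ENB1 (0.42) and VBA3 (0.42). Only 8 genes each lay within 0.5 of YRO2 and of HSP30.

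TPO2 was nearest to RFS1 (0.17), UIP4 (0.21) and YDR476C (0.21), and 60 genes lay within 0.5 of it. HAA1, near the bulk of the table, had 872 genes within 0.5, the nearest being ELF1 (0.036), SMU2 (0.069) and AKL1 (0.089). For MRH1 there were 421, the nearest being LSM6 (0.020), FIG1 (0.10) and RAM2 (0.11). None of the 5 was among the 3 nearest genes of another.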

How the data were processed

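Transcript levels were measured on 3 2-colour arrays. The deposited values are log2 ratios as read here: per the labels, the authors normalized each array by LOWESS from spots with a flag value of 0. The sources used here do not give the scanner, background correction, log base or direction. Array intensities were not used here, so signal over background is unknown, and the number of arrays limits the precision. Of the probes, 5308 had 1 gene symbol, 0 several and 964 none in the platform annotation, and 5199 of 5203 genes matched the RefSeq table (assembly R64, names and chromosomes only). Probes of a gene were averaged per array; 65 of 88 such genes, TPO4 among them, hold the same value at each probe.

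Each feature measured on all 3 arrays was tested against 0 with limma 3.58.1 (lmFit, eBayes, 5.10 prior degrees of freedom) in R 4.3.3, two-sided, with Benjamini-Hochberg adjustment; the script was tested on simulated data. P-values cover the spread between these arrays. The genes, lists and tests were chosen with earlier results of these data known. The text names 5 of the 6 genes (1 is not reported here), listed genes past the threshold or else at the ends of a list, CUP2, PDR12, PMA1, YGP1 and TPO1, and the 3 nearest patterns; other listed genes (INM1, COM2, SAP30, WAR1, ATO3, SPE1, SPE2, SPE4, OAZ1, SAM3, GRE1, SPI1, PHM8, RIM101 and ADY2) were chosen after their values were seen. Alternatives were median centring, a common median absolute deviation, quantile normalization, sub-grid medians (32 sub-grids of 14 by 14 spots), each array left out, the first listed probe, array weights, features with 2 or more values (for the listed genes chosen after seeing the data), robust moderation, an adjusted p of 0.01 and a test against a 1.5-fold change. A search of promoters for motifs, intended at first, was not run, as sequences were not used here.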

Additional observations from a re-analysis of the deposited data

How the results depend on the processing

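The count of 299 features stayed between 239 and 424 under 8 alternatives: median centring, a common median absolute deviation, quantile normalization, sub-grid medians, the first listed probe, values on at least 2 arrays, robust moderation and array weights. Leaving out 1 array gave 0 (without replicate 3) to 657 (without replicate 2) and 11 without replicate 1, with 878 features at an unadjusted p under 0.05 where the count was 0. At an adjusted p of 0.01 it was 0 (1129 at an unadjusted p under 0.05), and 4 against a 1.5-fold change. Over 8 alternatives, the means ran from 2.13 to 2.53 for YRO2, 1.49 to 2.53 for HSP30, 1.19 to 1.60 for TPO2, 0.33 to 0.48 for HAA1 and -0.15 to 0.38 for MRH1, whose sign turned without replicate 2 or 3. For TPO2, 1.19 was the value with sub-grid medians subtracted, which by construction removes its surroundings' shift; over arrays left out it was 1.32 to 1.60. Of the 36 listed genes with all values, 0 to 7 passed over the arrays left out, and 8 (6 higher, 2 lower) with sub-grid medians. It was 7 (1 lower) under the other 3 scalings, 5 with the first listed probe and 4 with values on at least 2 arrays. GRE1, outside these 36, also passed in that last fit (limma adjusted p = 0.0363). The proton pump list's median was -0.71 to -0.36 over them, -0.71 without replicate 2. The medians of the other lists moved by less than the spread between arrays, though those of the weak-acid and polyamine lists moved by over 1.5 times (given with them), that of the DHA1 antiporters reached 0.37 without replicate 3, and that of the copper-fist list, 0.097, ran from 0.046 to 0.15. YIR035C, which has 1 probe and an unchanged ratio of 1.67 there, crossed the threshold with the first listed probe (adjusted p = 0.0502) through the fit and adjustment over the other features. The cause of the dependence on single arrays was not tested. The test of within-array ratios is itself paired by array. No further paired analysis was possible because a replicate block would leave nothing to test.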

Other observations

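The protein-coding genes next to each of the 5 on the chromosome were taken from the RefSeq table. Next to YRO2, YBR053C had 1.25, -0.23 and 0.25 (mean 0.42 ± 0.75, adjusted p = 0.444) and PRP6, a splicing factor gene, was at 0.61 ± 0.27 (0.177). RFS1 (YBR052C), the gene nearest to TPO2 in pattern and not directly next to YRO2, had 1.38, 1.00 and 1.83. Beside MRH1, PST2 had 1.12, 0.20 and 1.15 (0.82 ± 0.54, adjusted p = 0.122) and LYS14, a regulator gene of lysine synthesis, -0.54, 1.70 and -1.05 (0.03 ± 1.46, 0.971). Beside HAA1, SUT2 was below 0 on every array (-1.27, -0.13 and -1.42, mean -0.94 ± 0.70, 0.112), and beside TPO2, LSB1 was at 0.54 ± 0.19 (0.215). None of the directly adjacent genes with a value passed the threshold in limma. Both neighbours of HSP30, REC8 beside HAA1 and CBF2 beside TPO2 had no value and were not analysed here.

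Further listed genes had values on 2 arrays only. YHK8 had 0.68 and 0.62 on replicates 1 and 2, TPO5, a polyamine exporter gene of another family, -1.22 and -0.37 on the same arrays, DUR3, a urea and polyamine permease gene, 1.05 on replicate 1 and -0.05 on replicate 3, and AST1 0.56 on replicate 2 and 0.26 on replicate 3.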
